A study of Macaca mulatta with 8 samples.

Results

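Maturation-promoting factor is the kinase that drives an oocyte into and through meiosis, and 6 genes of this machinery were followed: CDK1, CCNB1, CCNB3, CDC25B, ARPP19 and MOS. The members are the probe sets, short sets of array probes that report one transcript, whose single gene symbol in the platform annotation is one of these names. These 6 of 12993 named genes had 12 probe sets among 52865 on a rhesus macaque (Macaca mulatta) Affymetrix array: 3 for CDK1, 2 for CCNB1, 4 for ARPP19 and 1 each for CCNB3, CDC25B and MOS. The rule itself reads gene names and no signal, but these genes were chosen when results of these data, the CDK1 difference included, were already known. The study compared metaphase II oocytes that had completed maturation in the animal (in vivo) with metaphase II oocytes that had done so in culture (in vitro). Each group had 4 arrays, each with amplified RNA from 4 oocytes pooled together. No label names an agent, hormone treatment, culture medium or animal for either group. The arrays of a group are labelled biological replicates, but nothing says that the pools came from separate animals, so every p-value here measures spread between pools, which may be technical.

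CDK1 is the catalytic subunit of maturation-promoting factor and needs a bound cyclin, which in this complex is of the B type. CDC25 phosphatases switch the complex on by removing inhibitory phosphates, and ARPP19, once phosphorylated by the Greatwall kinase, blocks the phosphatase PP2A-B55 that would undo its work. MOS starts a MAP kinase cascade that helps to keep the egg arrested at metaphase II until fertilization. In growing and maturing oocytes many of these proteins are made from stored maternal mRNAs whose translation is timed by their poly(A) tails, so a transcript level is not a protein level.

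Signals are MAS5 values on a linear scale, and the signal of one probe set cannot be set against that of another. Values were compared as log2(signal + 8.2), and log2 fold changes are in vitro minus in vivo. All 12 members were bright enough to be tested among 26378 probe sets, and 11 lay above the array background on all 8 arrays. The exception was the CDK1 probe set MmugDNA.25206, which was above background on 4 in vivo arrays and 3 in vitro arrays. Of the 12 members, 1 was called lower in vitro at a limma adjusted p of 0.05, and 0 were called higher. Over all tested probe sets, 0.0493% were called lower and 0.0986% higher, or 0.148% in all. At an unadjusted limma p under 0.05 there were 4 members, from CDK1 (2 probe sets), CDC25B and ARPP19, where 10.3% of all tested probe sets reached that level. The median log2 fold change was -0.57 over the members and 0.00 over all tested probe sets, and 9 of 12 members had a negative value, as did 49.5% of all tested. Probe sets of a gene are not independent, and the 9 include all 3 of CDK1 and all 4 of ARPP19. By gene, 4 of 6 had a negative value at every tested probe set. Because of how the genes were chosen, these counts describe the members and are not independent support.

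**Figure D1:**
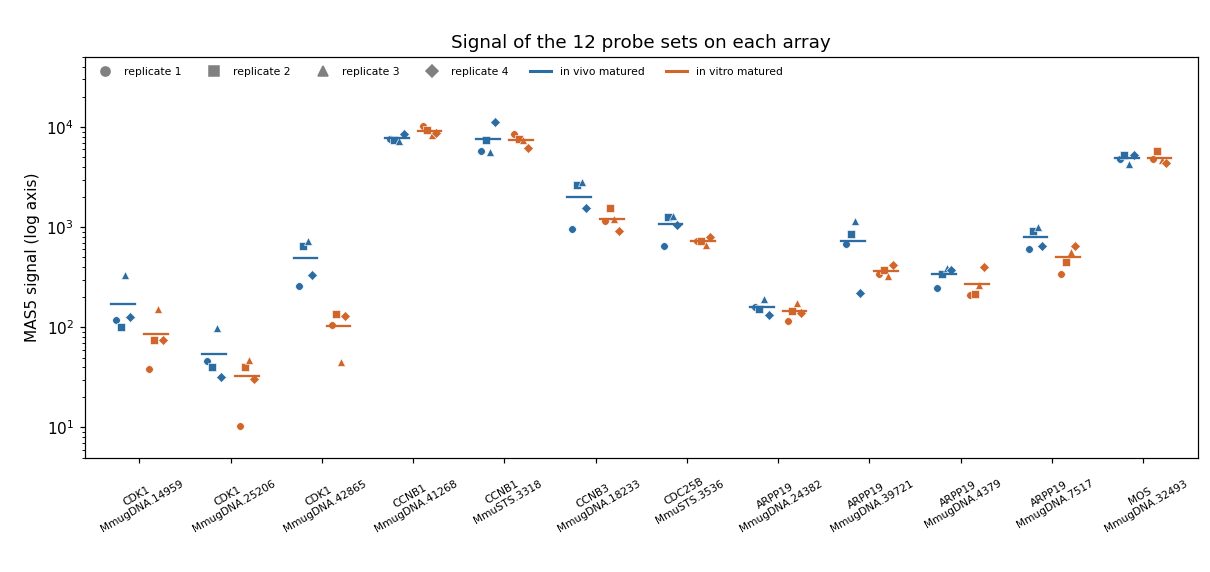
MAS5 signal (log axis) of the 12 probe sets on each of 8 arrays, with blue for in vivo and orange for in vitro matured pools, marker shapes for replicate numbers, and lines at group means. Among these probe sets the groups are fully apart at CDK1 MmugDNA.42865 alone, with in vivo signals from 258 to 725 and in vitro signals from 44.8 to 135.

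CDK1 transcripts fell in the pools matured in culture at 1 of 3 probe sets, and the others had negative log2 fold changes without passing the test. At MmugDNA.42865 (MmugDNA.42865.1.S1_at in full) the in vivo signals were 258, 650, 725 and 331 in replicates 1 to 4, and the in vitro signals were 104, 135, 44.8 and 131. The lowest in vivo array lay above the highest in vitro array. Such a separation with in vitro lower was found at 3.15% of all tested probe sets, and one in either direction at 6.33%. The difference amounted to a 4.38-fold fall, or a log2 fold change of -2.13 ± 0.37 (SE, 95% interval -2.92 to -1.34, n = 4 each; limma adjusted p = 0.0321). The call was lost without in vivo replicate 2 or 3 or without any single in vitro array, with log2 fold changes between -1.81 and -2.28 and limma adjusted p-values from 0.0725 to 0.136. It was also lost with quantile normalization (limma adjusted p = 0.0520) and without the intensity trend in the variance (limma adjusted p = 0.219).

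At MmugDNA.14959 the in vivo signals were 118, 101, 335 and 126, and the in vitro signals were 38.8, 75.4, 152 and 75.1. In vivo replicate 3 was the highest of its group here, as it was at both other CDK1 probe sets, and in vitro replicate 3 reached above 3 of the in vivo arrays. The log2 fold change was -0.90 (95% interval -1.75 to -0.05; limma adjusted p = 0.455). It was -0.53 without in vivo replicate 3 and -0.61 without in vitro replicate 1. At the dim MmugDNA.25206 the in vivo signals were 46.3, 40.1, 98.1 and 31.8, and the in vitro signals were 10.4, 40.5, 47.6 and 30.7. The groups overlapped, with a log2 fold change of -0.63 (95% interval -1.54 to 0.29; limma adjusted p = 0.654). Without in vitro replicate 1 it was -0.29, and without in vivo replicate 3 it was -0.33.

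The 3 CDK1 probe sets disagreed most on 1 array. In vitro replicate 3 had the highest in vitro signal at MmugDNA.14959 and at MmugDNA.25206, yet the lowest at MmugDNA.42865. The log2 difference of MmugDNA.14959 from MmugDNA.42865 was 1.59 on that array and between -2.59 and -0.74 on the other 7. Between groups this difference moved by 1.23 (exact two-sided permutation p = 0.0857), and that of MmugDNA.25206 from MmugDNA.42865 moved by 1.504 (exact p = 0.0571). Over the 10 pairs of probe sets within CDK1, CCNB1 and ARPP19, 0 had an unadjusted exact p under 0.05, and the smallest adjusted p was 0.286. With 4 arrays against 4 the exact test cannot go below 0.0286, so the adjusted test over 10 pairs could pass only if several pairs reached that value. Without in vitro replicate 1 both of these CDK1 differences had an exact p of 0.0286. Without in vitro replicate 3, the array of most disagreement, both were smaller. The difference of MmugDNA.14959 from MmugDNA.42865 then moved by 0.60 (exact p = 0.229). That of MmugDNA.25206 from MmugDNA.42865 moved by 0.99 (exact p = 0.114).

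**Figure D2:**
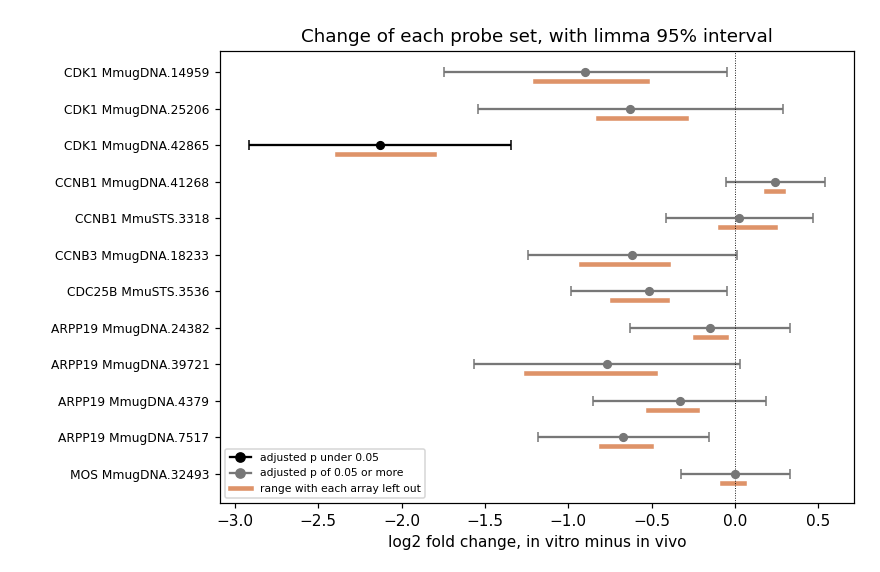
Log2 fold change (in vitro minus in vivo) of each of the 12 probe sets, with points at the limma estimate, bars for its 95% interval and orange lines for the range of estimates with each array left out in turn. CDK1 MmugDNA.42865 at -2.13 is the black point that passed an adjusted p of 0.05, and the intervals of both CCNB1 probe sets and of MOS span 0.

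Neither probe set of CCNB1, which encodes cyclin B1, the main partner of CDK1, passed the test. At MmugDNA.41268 the CCNB1 signals were 7705, 7526, 7298 and 8590 in vivo and 10360, 9374, 8424 and 8694 in vitro. A single in vivo array, replicate 4, reached above the lowest in vitro array. This gave a log2 fold change of 0.24 (95% interval -0.06 to 0.54; limma adjusted p = 0.584), so an increase above 0.54 or a decrease beyond 0.06 lies outside the interval. At the second CCNB1 probe set, MmuSTS.3318, the signals were 5751, 7415, 5706 and 11272 in vivo and 8526, 7598, 7416 and 6146 in vitro. In vivo replicate 4 was the highest of all 8 arrays at this probe set, and the groups overlapped throughout. Its log2 fold change was 0.03 (95% interval -0.42 to 0.47; limma adjusted p = 0.979), and its sign turned with quantile normalization (-0.02) and median centring (-0.03).

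Cyclin B3 is a B-type cyclin of the germ line, needed in female mice for the step from metaphase to anaphase of the first division. The CCNB3 signals were 961, 2626, 2843 and 1545 in vivo and 1147, 1545, 1216 and 927 in vitro. In vivo replicates 2 and 3 stood above every in vitro array, while in vivo replicate 1 lay among them. The change was -0.62 on the log2 scale (95% interval -1.24 to 0.01; limma adjusted p = 0.50) and ran from -0.92 to -0.40 with each array left out, without passing.

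CDC25B is the phosphatase that activates CDK1 at the resumption of meiosis in mouse oocytes. Its signals were 654, 1277, 1303 and 1066 in vivo and 722, 721, 663 and 793 in vitro. In vivo replicate 1 lay below all in vitro arrays and the other in vivo arrays lay above them. The in vitro arrays were close together, with an SD of 0.10 on the log2 scale against 0.46 in vivo. On the log2 scale the fold change was -0.52 (95% interval -0.99 to -0.05; limma adjusted p = 0.435), and the call was not made in any of the leave-one-out fits, where the lowest limma adjusted p was 0.154.

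ARPP19 had 4 probe sets, which all had negative log2 fold changes, and 0 of them passed. At MmugDNA.7517 the signals were 607, 918, 1017 and 652 in vivo and 341, 450, 564 and 651 in vitro. In vitro replicate 4 alone reached into the in vivo range. This corresponds to a log2 fold change of -0.67 (95% interval -1.18 to -0.16; limma adjusted p = 0.355).

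At MmugDNA.39721 the ARPP19 signals were 680, 862, 1147 and 221 in vivo and 340, 375, 326 and 415 in vitro. In vivo replicate 4 was the lowest of all 8 arrays, and the other in vivo arrays were higher than every in vitro array. Over all 8 arrays the log2 fold change was -0.77 (95% interval -1.57 to 0.03; limma adjusted p = 0.507). Without in vivo replicate 4 it was -1.25 and passed (limma adjusted p = 0.0218). In vivo replicate 4 also had the highest 3'-to-5' ratio of the EEF1A1 control, a measure of how complete the amplified transcripts are: 12.8, against 2.70 to 7.70 on the other in vivo arrays and 3.59 to 4.91 in vitro. With that ratio as a covariate the log2 fold change was -0.98 (limma adjusted p = 0.108). The beta-actin and GAPDH ratios were instead highest on in vivo replicate 2, at 150 and 49.4, against 108 and 24.8 on in vivo replicate 4. With the beta-actin ratio as a covariate the log2 fold change was -0.86 (limma adjusted p = 0.371). The part of transcript completeness in the low signal of in vivo replicate 4 was not tested.

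The remaining ARPP19 probe sets differed less. MmugDNA.4379 ran from 250 to 394 in vivo and from 212 to 400 in vitro, with a log2 fold change of -0.33 (95% interval -0.85 to 0.19). MmugDNA.24382 ran from 134 to 194 in vivo and from 116 to 175 in vitro, with a log2 fold change of -0.15 (95% interval -0.63 to 0.33). The ranges of the groups overlapped at both.

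MOS transcripts showed the smallest difference of the 12 probe sets. The signals were 4799, 5273, 4305 and 5330 in vivo and 4796, 5835, 4728 and 4418 in vitro. The groups overlapped throughout. Their log2 fold change was 0.00 (95% interval -0.32 to 0.33; limma adjusted p = 0.998), and its sign turned with the normalization. The interval leaves out a change of 2-fold in either direction, as do those of CDC25B, of both CCNB1 probe sets and of ARPP19 MmugDNA.4379 and MmugDNA.24382.

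The arrays of the in vivo group carried a shared order at several members. In vivo replicates 2 and 3 were both above replicates 1 and 4 at 5 of 12 probe sets: CDK1 MmugDNA.42865, CCNB3, CDC25B, and ARPP19 MmugDNA.39721 and MmugDNA.7517. This pattern was noticed in the values, and it occurred at 13.4% of all tested probe sets. The log2 SD was larger in vivo than in vitro at 6 of 12 members and at 66.4% of all tested probe sets.

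Whether CDK1 changed by as much as the other members was tested on the difference of their log2 values on each array, with the tested probe sets of a gene averaged. Relative to CCNB1, CDK1 was lower in vitro by -1.35 on the log2 scale: the in vivo difference was -5.54 ± 0.80 and the in vitro difference -6.89 ± 0.52 (SD, n = 4; p = 0.0286 by an exact two-sided permutation test, 0.0476 adjusted over 5 pairs). Relative to MOS the change was -1.22 (exact p = 0.0286, adjusted 0.0476), and relative to ARPP19 it was -0.74 (exact p = 0.0286, adjusted 0.0476). MOS itself moved by 0.00, so the change relative to MOS is in effect that of CDK1 alone (-1.22, exact p = 0.0286). In these 3 pairs every in vitro array lay below every in vivo array, and 0.0286 is the smallest p the design allows. Relative to CDC25B the change was -0.70 (exact p = 0.0857, adjusted 0.107) and relative to CCNB3 it was -0.60 (exact p = 0.143, adjusted 0.143), with overlapping groups. With each gene at its brightest probe set, which for CDK1 is MmugDNA.42865, the changes were -2.37 relative to CCNB1, -2.13 to MOS, -1.61 to CDC25B, -1.52 to CCNB3 and -1.46 to ARPP19, each with an exact p and an adjusted p of 0.0286. The order of the members, and which pairs passed, therefore differed with the probe sets used. Without in vivo replicate 4 the change relative to CDC25B was -0.85 (exact p = 0.0286, adjusted 0.0476). The average over the CDK1 probe sets rests in part on MmugDNA.42865, whose fall was already known when the pairs were chosen. For CDK1 the 5 tests at the brightest probe sets rest on MmugDNA.42865 alone. They largely repeat its known separation and are not independent support. Without any single in vitro array the exact p relative to CCNB1 was 0.0571, with changes from -1.46 to -1.09. The same p was found relative to MOS without in vitro replicate 1 (-1.04) and relative to ARPP19 without in vivo replicate 3 (-0.59) or 4 (-0.72). With each array left out, the adjusted exact p was under 0.05 in 3 of 8 cases relative to CCNB1 and to MOS and in 2 of 8 relative to ARPP19.

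**Figure D3:**
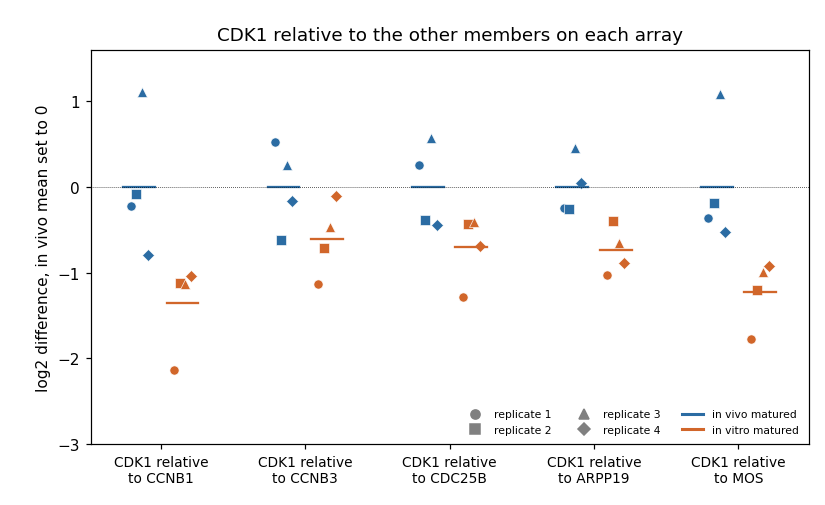
Log2 value of CDK1 minus that of each other member on each array, with tested probe sets of a gene averaged and the in vivo mean set to 0 (blue in vivo, orange in vitro, shapes for replicates, lines at group means). The groups are apart relative to CCNB1, ARPP19 and MOS and overlap relative to CCNB3 and CDC25B.

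The wider pathway was read from 6 lists of 134 genes, of which 98 were tested, each at its brightest tested probe set. CDK1 was the only gene of these lists called, lower in vitro, and 0 were called higher, where 9 of all 9560 named genes tested were called lower and 17 higher. At an unadjusted limma p under 0.05 there were 10, against 12% of all named genes tested, and 54 of the 98 had a negative log2 fold change, against 52.1%.

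Among 25 kinases, cyclins and their small subunits and inhibitors, CDK1 fell, 0 rose and 24 did not pass, and the median log2 fold change was -0.12. Over all named genes tested that median was -0.02. MNAT1, a subunit of the CDK-activating kinase, had in vivo signals of 462 ± 104 and in vitro signals of 309 ± 67.0 (SD, n = 4; limma adjusted p = 0.402). CCNO, an atypical cyclin, had a log2 fold change of -0.44, and the CDK4 and CDK6 inhibitor CDKN2D had -0.44, without passing. CCNB2, the remaining B-type cyclin on the array, was singled out after its value was seen. It was at 4319 ± 907 in vivo and 4243 ± 143 in vitro, with a log2 fold change of 0.00.

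Of 13 genes that act on the inhibitory phosphates of CDK1 or lie upstream of the enzymes that do, such as checkpoint kinases and subunits of protein kinase A, 0 passed (median 0.04), and CDC25B had the smallest unadjusted limma p, 0.0333. CHEK1, a checkpoint kinase that acts on CDC25 proteins, had a log2 fold change of 0.29 and PRKAR2B, a regulatory subunit of protein kinase A, had -0.55. The other CDC25 phosphatases were looked up after their values were known: CDC25A had -0.07, 0.18 and -0.58 at its 3 probe sets, and CDC25C had 0.04 and 0.22. Of these 13 genes 1 had an unadjusted limma p under 0.05 at its brightest probe set.

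Of 11 genes of the Greatwall and PP2A-B55 branch, 0 passed, 8 had negative values and the median was -0.09. PPP2R2D, a B55 regulatory subunit of PP2A, was at 750 ± 178 in vivo and 479 ± 77.3 in vitro, a log2 fold change of -0.62 (limma adjusted p = 0.332). Its signal in in vitro replicate 1, 581, lay above that of in vivo replicate 1, 572. PPP2R2C, another B55 subunit, had 0.53 at its brightest probe set and between -0.07 and 0.04 at the other 3. ENSA, the close relative of ARPP19 that PP2A-B55 also binds, was singled out after its value was seen and had -0.02 (95% interval -0.45 to 0.41).

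In the cascade that MOS starts, 0 of 8 tested genes passed and 0 had an unadjusted limma p under 0.05, with a median of -0.07. MAPK3 (ERK1) had a log2 fold change of -0.44, the ribosomal S6 kinase gene RPS6KA1 had -0.41, and BRAF, which can also activate the MAP kinase kinases, had 0.21. Of 21 genes of the anaphase-promoting complex, which marks cyclin B for destruction, and of its inhibitors and activators, 0 passed (median -0.02). CAMK2G, the calcium-responsive kinase that releases mouse eggs from arrest, had an in vivo signal of 286 ± 87.0 and an in vitro signal of 413 ± 68.5, a log2 fold change of 0.55 (limma adjusted p = 0.455), while its other probe sets had -0.01 and -0.44. ANAPC7 had -0.73 and 0.23 at its probe sets. CDC26, a subunit of the complex, had 0.29, and its 4 in vitro arrays lay above its 4 in vivo arrays. MAD2L2, singled out after its value was seen, had -0.30, with its groups apart in the opposite direction. Groups were apart in either direction at 6.33% of all tested probe sets.

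The last list held regulators of stored mRNA, which control when cyclin B and MOS are translated. Of 20 tested, 0 passed, and the median was 0.06. CPEB4, a protein that binds the cytoplasmic polyadenylation element, had an in vivo signal of 741 ± 159 and an in vitro signal of 1035 ± 132, a log2 fold change of 0.49 (limma adjusted p = 0.40), and its other probe sets had 0.35 and -0.16. DAZAP1 had 0.45, 0.11 and -0.45 at its 3 probe sets, and PABPC1L, the poly(A)-binding protein of oocytes, had -0.62 and 0.40.

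**Figure D4:**
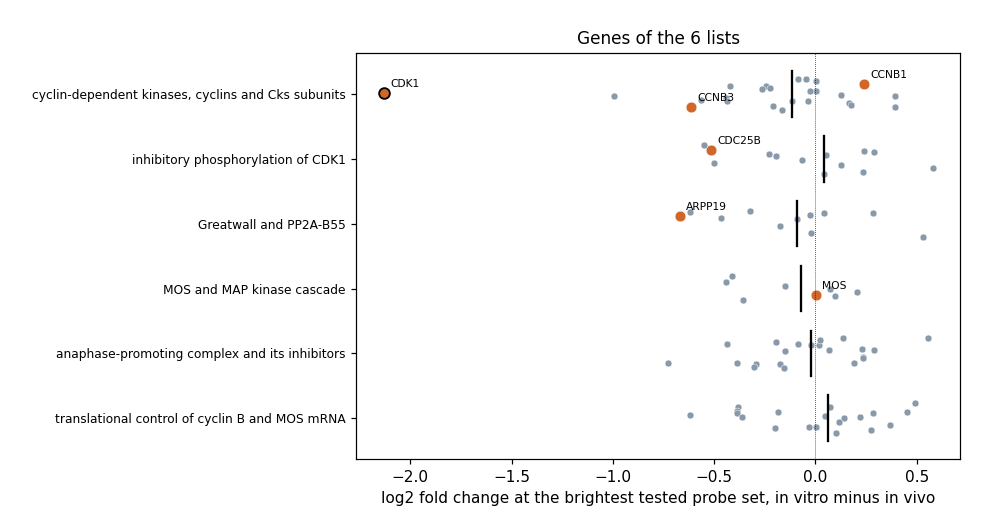
Log2 fold change (in vitro minus in vivo) of each tested gene of 6 pathway lists at its brightest tested probe set, with members in orange, other genes in grey, black bars at list medians and a black rim on the gene past an adjusted p of 0.05. Among these probe sets CDK1 at -2.13 stands alone at the left, and the medians lie between -0.12 and 0.06. Dimmer probe sets are not drawn. Among them were CDK3 MmugDNA.5326 at -1.55, FBXO5 MmuSTS.4762 at -1.23 and PAPOLG MmugDNA.1236 at -1.04 (0.28 at its brightest probe set). The other CDK1 probe sets were at -0.90 and -0.63, and YWHAZ MmugDNA.1041.1.S1_s_at was at 0.85. None of these passed.

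The genes whose log2 pattern over the 8 arrays was nearest to each member were found by the root mean square difference of centred values, as a description. For CDK1 MmugDNA.42865 they were HSD11B1 (0.37), AVEN (0.39) and HSPA4 (0.49), where the median over all named probe sets was 1.29. For CCNB1 MmugDNA.41268 they were CKAP5 (0.037), CDC42 (0.057) and TEX2 (0.060), against a median of 0.42. For MOS they were LMO4 (0.057), RPS3 (0.067) and CNGA3 (0.067), against 0.41. The nearest genes were DEDD, TMEM161A and ATIC for CCNB3, at 0.20 to 0.22. They were ZFP82, PREB and TRAM1 for CDC25B, at 0.10 to 0.12, and TBK1, TERB2 and DYRK3 for ARPP19 MmugDNA.7517, at 0.10 to 0.13.

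The pools were checked for other cells, because cell-cycle transcripts such as CDK1 are also made by dividing follicle cells. Of 12 oocyte markers on the array, 11 were above background on all 8 arrays, and 0 of 12 passed the test between groups. Of the 12, 7 had negative log2 fold changes, with a median of -0.15. At an unadjusted limma p under 0.05 there were 2, NLRP5 (-1.03) and LHX8 (-0.62). Of 21 granulosa and cumulus markers, 13 were above background on all arrays. Their summed signal over the tested genes was 25005 to 27085 in vivo and 23020 to 32098 in vitro. Such a sum mostly follows its brightest probe sets, such as SERPINE2 (mean 13703 in vivo), and does not show changes of dimmer ones. Of 20 tested, INHBA and STAR rose and 0 fell, and 12 had negative log2 fold changes, with a median of -0.12. At an unadjusted limma p under 0.05 there were 6 of the 20, against 12% of all named genes tested. Beside INHBA and STAR these were HSD3B2 (2.28), GREM1 (0.93), INHA (0.59) and ITIH2 (-1.20), which did not pass. Of 9 markers of proliferating cells, 8 were above background on all arrays, with summed signals of 27520 to 40345 in vivo and 28737 to 36297 in vitro, and 0 passed, although 3 of 9 had an unadjusted limma p under 0.05. Of the 9, 6 had negative log2 fold changes, with a median of -0.26, against 52.1% and -0.02 over all named genes tested. The overlapping sums mostly follow PCNA and MCM2 and include opposite values at MCM5 and TOP2A, which were singled out after their values were seen. MCM3, the other marker with an unadjusted limma p under 0.05, had -0.48. MCM5, a replication helicase subunit, ran from 1067 to 2876 in vivo and from 587 to 668 in vitro, with a log2 fold change of -1.18 (limma adjusted p = 0.120), and its other probe set had -0.38. TOP2A, a DNA topoisomerase, ran from 1881 to 3413 in vivo and from 3585 to 4390 in vitro, with a log2 fold change of 0.54 (limma adjusted p = 0.346), while its other probe set had -0.63. Several of these markers, such as PCNA, are also stored in oocytes. The proliferation marker MKI67 was near background, at 7.5 to 62.4 in vivo and 5 to 41 in vitro. Of 10 blood and immune markers, 0 were above background on all arrays, and the 4 tested ones summed to 131 to 228 in vivo and 64.3 to 149 in vitro. No marker on the array was listed at 0. The part of these markers in the CDK1 result was not tested, and less RNA per cell cannot be told apart from fewer cells of a type.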

How the data were processed

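The intensity values that the authors deposited were made with MAS5 (version not given in the sources used here), per the submitters' processing notes, and are linear. RNA of 4 pooled oocytes was amplified in 2 rounds and labelled with biotin, per the labels' protocols. Arrays had trimmed mean signals near 149. Tests left out 99 control probe sets. Values were taken as log2(signal + 8.2), the 25th percentile of signals, which understates changes of dim transcripts. Probe sets with a mean signal above the 50th percentile were tested (26378), and the comparison used limma 3.58.1 under R 4.3.3 (lmFit, eBayes with intensity trend), Benjamini-Hochberg adjusted over all of them. Background was the 95th percentile of 59 controls for transcripts not spiked in; 49.9% to 60.9% of probe sets lay above it. The number of arrays limits precision. Single values were compared by exact permutation over 70 assignments. Data were simulated with independent noise and the same SD in both groups, which the real arrays need not have. On these the limma fit called 18% of 50 probe sets changed 2-fold, 64% at 4-fold, 80% at 8-fold and 88% at 16-fold. Changed probe sets that fell under the filter counted as not called. Of its 129 calls, 4 were false, a share that holds for this setting only. A probe set that did not pass may therefore still have changed.

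The members and gene lists were chosen with earlier results of these data known. All members were named, and in each list the genes past the threshold and the 3 others of smallest unadjusted p, members counted among them, and the 3 genes most like each member. Where a list gene had several probe sets, it was called if any passed. Alternatives were other pseudocounts (1 and 27.7), filters, normalizations and variance models, array weights, a replicate block and each array left out. Covariates from control ratios were chosen after seeing the data. No coordinates or sequences are given.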

Additional observations from a re-analysis of the deposited data

How the results depend on the processing

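The count of members called, 1, was 0 with quantile normalization and without the intensity trend, and the count of pathway genes called, 1, was likewise 0 in both. With each array left out in turn, both counts ran from 0 to 2. They were 0 without in vivo replicate 2 or 3 and without any single in vitro array, and 2 without in vivo replicate 4, where ARPP19 joined CDK1. With the EEF1A1 control ratio as a covariate, 2 pathway genes were called, CDK1 lower and CPEB1 higher. The cause was not tested. The log2 fold change of CDK1 MmugDNA.42865 was negative in all settings run, between -2.39 and -1.81.

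Over all probe sets the 39 calls became 7 without the intensity trend, 88 with array weights, 302 with the EEF1A1 covariate and 62 with the beta-actin covariate, and 19 to 96 with an array left out. The log2 fold change of MOS changed sign with quantile normalization (-0.071), median centring (-0.051) and array weights (-0.0058), and ran from -0.080 to 0.054 with each array left out. That of CCNB1 MmuSTS.3318 was -0.016 with quantile normalization and -0.027 with median centring, and ran from -0.088 to 0.24 with each array left out. The difference between ARPP19 MmugDNA.39721 and MmugDNA.7517 ran from -0.50 to 0.066.

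Of the 10 probe set pairs, 0 had an unadjusted exact p under 0.05; the count was 1 with the pseudocount at the median signal and 0 to 3 with an array left out. The change of CDK1 relative to CCNB3 was -1.52 with each gene at its brightest probe set, and that relative to CDC25B was -1.61 with the brightest probe set and -0.67 with quantile normalization, each then with an exact p of 0.0286. With each array left out, CDK1 relative to CCNB1 ran from -1.62 to -0.98, to MOS from -1.39 to -0.86, to ARPP19 from -0.86 to -0.59 and to CDC25B from -0.85 to -0.51.

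No label says whether same-numbered arrays of the groups are related. Their deviations from the group means correlated at -0.045 to 0.011, and 0 of 4 in vivo arrays correlated best with their own number. Such low correlations between small amplified pools cannot show that the pools were unrelated. With the replicate block, 1 member was called and 44 probe sets in all. The pairwise changes of CDK1 were then -1.35 relative to CCNB1, -1.22 to MOS and -0.74 to ARPP19, with an exact p of 0.125, the smallest that 4 pairs can give.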
